A study of Mus musculus with 6 samples.

Results

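The proteasome genes of mouse lung were followed in 6 RNA sequencing libraries from wild type male C57BL/6J mice, an inbred laboratory strain. Lungs were taken from mice held at 4 °C for 6 h in the cold group and from mice kept at room temperature in the control group, with 3 libraries in each. The labels call the libraries biological replicates without saying that each came from its own animal, so p-values measure the spread between these libraries. The genes were chosen by name, as every listed gene whose symbol starts with Psm, a letter from a to g and a digit. This rule took 50 of the 18174 genes in the deposited table, of which 48 passed the filter on low values, and it used no measured value. One of them, Psmc3ip, is a partner protein of meiotic recombination that shares the name pattern and is not a subunit.

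The proteasome is the barrel-shaped protease that takes apart proteins tagged with ubiquitin. Its 20S core stacks rings of alpha subunits, which gate the entrance, around rings of beta subunits, some of which cut the substrate. The 19S cap binds ubiquitin chains, removes them and unfolds the substrate with a ring of ATPases. Interferon-gamma and immune cells are known for an alternative core, the immunoproteasome, in which Psmb9, Psmb10 and Psmb8 take the catalytic places of Psmb6, Psmb7 and Psmb5 and favour peptides that fit MHC class I. In lung, leukocytes and interferon-stimulated epithelium are the usual places of the immunoproteasome.

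All 14 constitutive core subunits were lower in cold lungs, and none of the 3 catalytic subunits of the immunoproteasome passed the test. Levels are given as scaled RPM, which is reads per M reads mapped, where M stands for mega, corrected for RNA composition by a trimmed mean over all genes. Of the 48 genes tested, 37 were lower in cold than at room temperature, 1 was higher and 10 did not pass the test (limma, adjusted p under 0.05). The cold change was wide across the whole table, where 34.9% of the 15236 genes tested were lower and 35.5% were higher, so a lower call in itself was common. The share of proteasome genes called lower was 77.1%. Their median log2 change was -0.61, against a median of 0.00 over all genes tested, and 45 of the 48 lay below that all-gene median. Across the table, 26.9% of genes had a change below the median of the proteasome genes.

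The call of a direction depends on the scaling. With the deposited library totals alone, the median log2 change of all genes was 0.29, and 24 proteasome genes were lower and 4 higher, beside 24.7% lower and 46.2% higher over all genes. The median of the proteasome genes was then -0.29, and 44 of the 48 lay below the all-gene median. Changes below are relative to the composition-corrected scale, and a change that turns direction with library totals alone is named where it occurs.

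**Figure D1:**
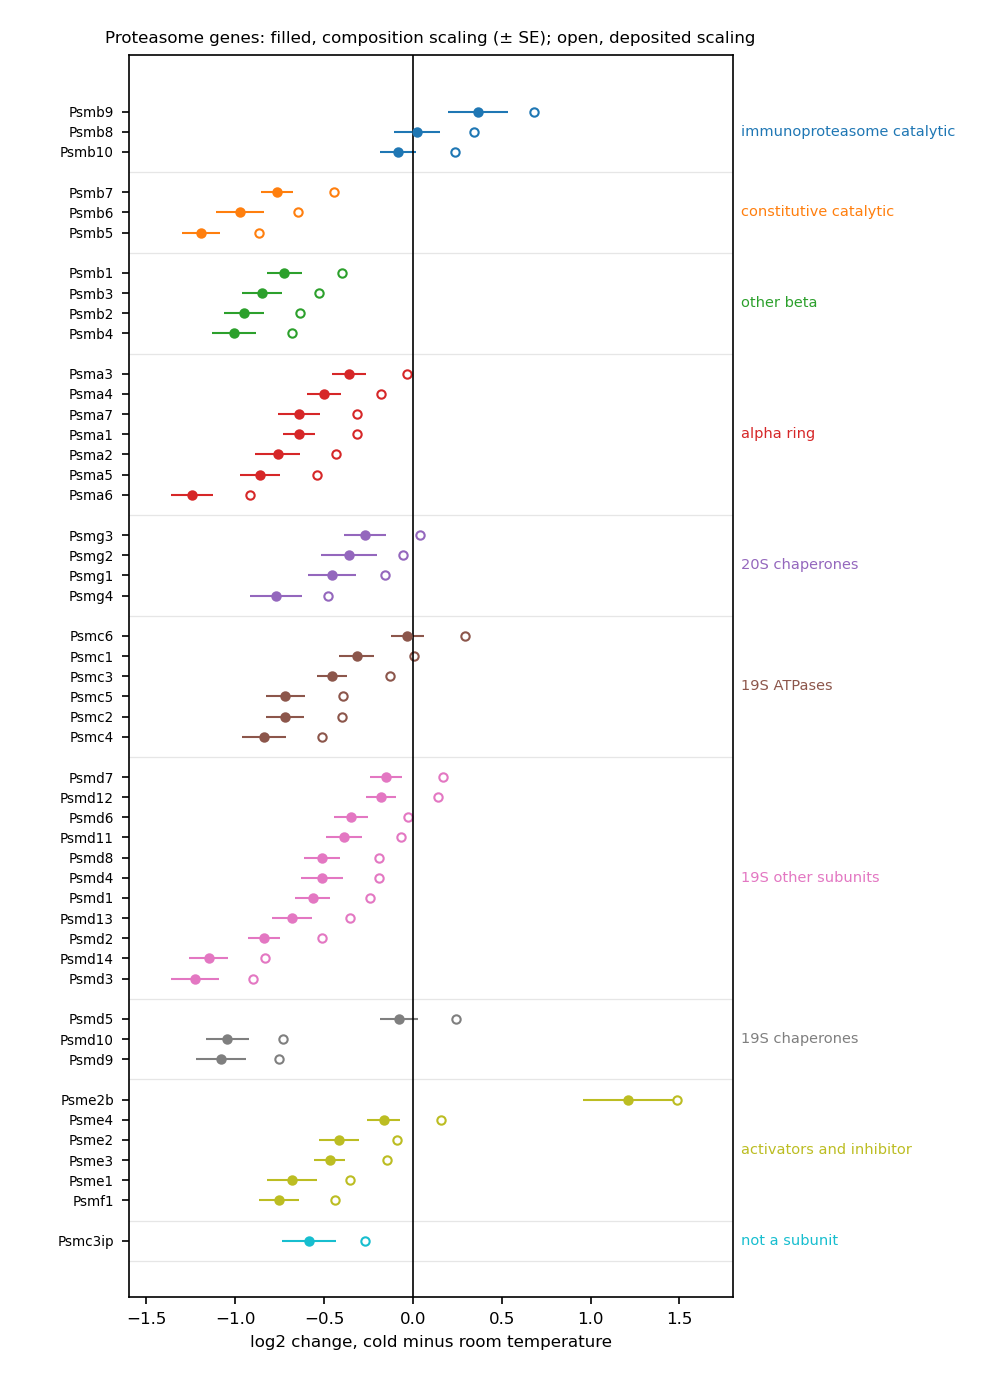
Log2 change, cold minus room temperature, of each of the 48 proteasome genes tested (x axis, log2 of scaled RPM), grouped by role down the y axis. Filled points with bars give the composition-corrected change ± standard error and open points the change with library totals alone. The 14 constitutive core subunits lie below 0 on both scales, while Psmb8, Psmb9 and Psmb10 lie between -0.08 and 0.37 after correction. With library totals alone Psmb10, Psmc1, Psmc6, Psmd7, Psmd12, Psmd5, Psme4 and Psmg3 move to the other side of 0.

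The recovered depth was 32.7 to 35.1 M reads in the cold libraries and 39.7 to 48.7 M at room temperature. All 48 tested genes had the equivalent of 10 reads or more in every library. The first principal component over all genes held 90.3% of the variance, with the cold libraries at -69.3 to -77.9 and the room temperature libraries 1, 2 and 3 at 81.3, 94.3 and 43.9. Room temperature library 3 thus stood nearest to the cold group, and without it 37 proteasome genes were lower and 1 higher, with a median log2 change of -0.68. Markers of other cell types moved strongly between the groups. Their counts below stand beside 34.9% lower and 35.5% higher over all genes tested. Summed endothelial markers were 1654 to 1828 scaled RPM in cold and 72.8 to 364 at room temperature, with 10 of 10 higher. Summed club and secretory cell markers were 20952 to 24436 in cold and 84472 to 115634 at room temperature, with 8 of 8 lower. Of the 7 ciliated cell markers tested, 6 were lower, with sums of 347 to 476 in cold and 1644 to 2560 at room temperature. Alveolar markers were higher for 5 of 8, with sums of 11302 to 14798 in cold and 3926 to 6619 at room temperature. Cardiac muscle markers were lower for 7 of 8, with sums of 129 to 233 in cold and 349 to 1395 at room temperature. No marker was at 0 throughout either group, and lung markers were present in all libraries. The part of these differences in the proteasome results was not tested, and in bulk tissue fewer cells of a type and less RNA per cell cannot be told apart.

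The alpha ring forms the gate of the core and docks the caps. All 7 of its constitutive subunits were lower, and their median log2 change was -0.64. Psma6 had the largest fall of the 48 genes, with 19.7, 24.4 and 24.2 scaled RPM in cold libraries 1, 2 and 3, against 59.1, 54.3 and 49.98 in room temperature libraries 1, 2 and 3. The groups lay far apart, at 22.8 ± 2.64 in cold and 54.5 ± 4.59 at room temperature (SD, n = 3 each), a log2 change of -1.24 with a standard error of 0.119 (limma, adjusted p = 0.000103). Psma5 followed, with 14.4, 14.7 and 14.0 scaled RPM in cold against 23.7, 30.4 and 25.8 at room temperature, a log2 change of -0.86. Psma2 had 116, 141 and 114 in cold against 201, 238 and 191 at room temperature, and its change was -0.76. The smallest falls of the ring were those of Psma3, at -0.36, and Psma4, at -0.50, and neither passed the test with library totals alone. The remaining pair, Psma1 and Psma7, both changed by -0.64. Psma8, a testis form that replaces Psma7 in germ cells, had 0.199, 0.101 and 0.0502 scaled RPM in cold and was listed at 0 in each room temperature library, about 13.0 reads in all, and was not tested.

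The non-catalytic beta subunits complete the inner rings. All 4 were lower, and their median log2 change was -0.90. Psmb4 had 59.9, 66.4 and 57.8 scaled RPM in cold libraries against 127, 140 and 106 at room temperature, and its change was -1.01 with a standard error of 0.125 (limma, adjusted p = 0.000283). Psmb2 had 12.3, 10.9 and 11.1 in cold against 22.0, 25.2 and 20.8 at room temperature, a change of -0.95. In both genes every cold library lay below every room temperature library. Psmb3 changed by -0.85 and Psmb1 by -0.72. The sum over the 14 constitutive core subunits of both ring types was 519, 571 and 510 scaled RPM in cold, against 937, 1049 and 864 at room temperature. All 14 had groups that did not overlap, where 37.7% of all genes tested did so in this direction. Their median log2 change was -0.81, and 21.1% of all genes tested lay below it. With library totals alone 12 of the 14 were lower and none was higher, beside 24.7% and 46.2% of all genes.

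The catalytic subunits come in pairs that compete for the same place in the ring. Psmb5, the constitutive chymotrypsin-like subunit, lies at chr14:54614119-54618022 on the minus strand of GRCm38 (mm10). Its immunoproteasome counterpart Psmb8 lies at chr17:34197721-34201454 on the plus strand, inside the MHC region. Psmb6, the caspase-like subunit, lies at chr11:70525367-70527858 on the plus strand, and its counterpart Psmb9 at chr17:34181987-34187764 on the minus strand, beside Tap1. Psmb7, the trypsin-like subunit, lies at chr2:38588036-38644087 on the minus strand, and its counterpart Psmb10 at chr8:105935735-105938444 on the minus strand.

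The promoter windows of the catalytic subunits are shown because the members of a pair share a place in the core. Psmb7 had no entry. Each runs from 250 bases before to 50 bases after the RefSeq transcription start, on the GRCm38.p6 build, in the gene's own 5′ to 3′ direction. Capitals mark matches to TTCNNNGAA, the gamma-activated site pattern, or to TGACNNNGC, an antioxidant response element core that Nrf factors bind, on either strand.
Psmb8, chr17:34197945-34198244, plus strand: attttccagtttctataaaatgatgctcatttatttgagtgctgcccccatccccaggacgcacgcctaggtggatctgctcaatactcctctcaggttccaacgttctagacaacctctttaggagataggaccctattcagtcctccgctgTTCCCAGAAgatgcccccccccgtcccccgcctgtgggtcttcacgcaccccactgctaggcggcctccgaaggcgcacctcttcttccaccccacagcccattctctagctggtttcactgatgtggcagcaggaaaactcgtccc
Psmb5, chr14:54617946-54618245, minus strand: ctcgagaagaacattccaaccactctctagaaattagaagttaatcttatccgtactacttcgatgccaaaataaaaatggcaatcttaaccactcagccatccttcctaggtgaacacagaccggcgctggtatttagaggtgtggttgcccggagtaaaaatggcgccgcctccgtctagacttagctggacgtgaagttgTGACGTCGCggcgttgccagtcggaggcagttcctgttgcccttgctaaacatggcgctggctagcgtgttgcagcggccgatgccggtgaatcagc
Psmb9, chr17:34187281-34187580, minus strand: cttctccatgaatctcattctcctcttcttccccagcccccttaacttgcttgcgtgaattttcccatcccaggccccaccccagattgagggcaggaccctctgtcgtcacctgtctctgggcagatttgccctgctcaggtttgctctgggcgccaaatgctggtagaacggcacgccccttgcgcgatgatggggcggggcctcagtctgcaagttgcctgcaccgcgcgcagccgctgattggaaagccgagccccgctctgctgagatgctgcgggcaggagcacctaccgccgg
Psmb6, chr11:70525107-70525406, plus strand: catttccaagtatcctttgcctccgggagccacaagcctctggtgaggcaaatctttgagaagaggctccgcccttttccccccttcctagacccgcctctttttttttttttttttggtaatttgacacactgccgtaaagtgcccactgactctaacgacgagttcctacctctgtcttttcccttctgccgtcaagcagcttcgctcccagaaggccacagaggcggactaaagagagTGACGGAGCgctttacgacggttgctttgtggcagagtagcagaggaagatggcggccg
Psmb10, chr8:105938343-105938642, minus strand: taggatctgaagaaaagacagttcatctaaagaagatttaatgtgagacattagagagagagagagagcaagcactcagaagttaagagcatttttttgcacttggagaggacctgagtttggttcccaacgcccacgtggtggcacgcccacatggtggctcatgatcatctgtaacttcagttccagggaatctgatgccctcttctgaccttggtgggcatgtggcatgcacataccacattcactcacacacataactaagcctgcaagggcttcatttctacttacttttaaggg
The Psmb8 window held 1 TTCNNNGAA match, and the Psmb5 and Psmb6 windows held 1 TGACNNNGC match each. The Psmb9 and Psmb10 windows held neither of these, and none of the 5 windows held GAAA followed, after any 2 bases, by GAAA, an interferon-stimulated response element core. The Psmb8 and Psmb9 windows lie wholly inside the gene spans given above, so bases before those spans were not searched. Absence of a match therefore covers the window alone. Windows were found for 42 of the 50 genes. Besides Psmb7, those with no entry were Psmb1, Psmb2, Psmc3, Psmd3, Psmd7, Psma8 and Psmg2. Of the 42, TGACNNNGC was in 6 (14.3%), TTCNNNGAA in 3 (7.14%) and the GAAA pair in 5 (11.9%). The shares over all genes with a window were 14.0%, 9.55% and 3.99% for the same patterns in the same order. A match describes letters in the window and was not tested for binding.

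The 3 constitutive catalytic subunits were all lower in cold. Psmb5 had 34.4, 34.9 and 30.6 scaled RPM in cold libraries, against 77.2, 83.5 and 70.0 at room temperature. The highest cold library had less than any room temperature library, and the means were 33.3 ± 2.37 in cold and 76.9 ± 6.76 at room temperature (SD, n = 3 each). Its log2 change was -1.19 with a standard error of 0.106 (limma, adjusted p = 7.93e-05). Psmb6 had 50.4, 50.005 and 47.4 in cold against 95.5, 116 and 82.5 at room temperature, a log2 change of -0.97 with a standard error of 0.133 (limma, adjusted p = 0.000436). Psmb7 had 17.0, 16.6 and 16.0 in cold against 27.9, 30.007 and 27.4 at room temperature, a log2 change of -0.76 with a standard error of 0.0915 (limma, adjusted p = 0.000242). The cold values of all 3 lay close together, while Psmb6 spread widest at room temperature.

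None of the 3 immunoproteasome catalytic subunits passed the test, and their groups overlapped. Psmb8 had 26.2, 28.5 and 31.1 scaled RPM in cold against 24.98, 33.1 and 26.7 at room temperature, a log2 change of 0.02 with a standard error of 0.13002 (limma, adjusted p = 0.884). Psmb9 had 13.1, 14.0 and 16.5 in cold against 8.92, 13.6 and 11.2 at room temperature, a change of 0.37 with a standard error of 0.169 (limma, adjusted p = 0.0851). Psmb10 had 33.0, 33.8 and 29.4 in cold against 32.8, 36.9 and 32.4 at room temperature, a change of -0.08 with a standard error of 0.102 (limma, adjusted p = 0.480), which turns to 0.24 with library totals alone. Room temperature library 2 was the highest of its group in all 3 genes, as it was for Psmb5, Psmb6 and Psmb7. Without that library Psmb9 passed the test, at a log2 change of 0.49 (limma, adjusted p = 0.0208). With library totals alone Psmb8, at 0.35, and Psmb9, at 0.68, were higher in cold and Psmb10 did not pass. On that scale 46.2% of all genes tested were higher, and the all-gene median was 0.29. The libraries are not stated to keep strand, and antisense genes cover 57.3% of the span of Psmb8 and 100% of that of Psmb10, so reads of each cannot be told from those of its antisense partner. Summed leukocyte markers were 213 to 276 scaled RPM in cold and 60.2 to 133 at room temperature, with 14 of 16 higher. Over all genes tested the share higher was 35.5%. The part of leukocytes in the immunoproteasome values was not tested.

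**Figure D2:**
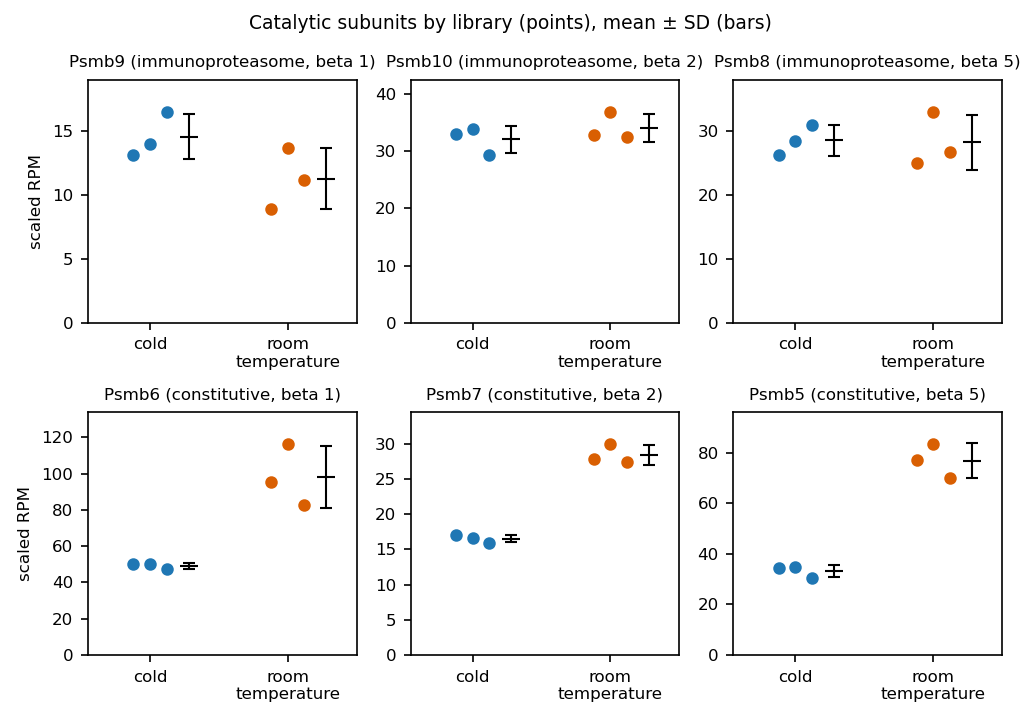
Level of each catalytic subunit (y axis, scaled RPM) in each of the 6 libraries, cold left of room temperature, with a panel for every subunit and a bar at the group mean ± SD. Psmb5, Psmb6 and Psmb7 separate fully, while the groups of Psmb8, Psmb9 and Psmb10 overlap.

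Because each pair competes for a single place, the makeup of the transcripts was set out as the immunoproteasome share of the pair, per kilobase of the principal mRNA. These shares carry no pseudocount, so a library's scaling cancels within them. At the beta 1 place, Psmb9 made up 13.3%, 14.1% and 17.0% of Psmb9 plus Psmb6 in cold libraries, against 5.22%, 6.47% and 7.41% at room temperature. At the beta 5 place, Psmb8 made up 29.6%, 31.0% and 35.9% of Psmb8 plus Psmb5 in cold, against 15.2%, 18.0% and 17.4% at room temperature. At the beta 2 place, Psmb10 made up 63.1%, 64.4% and 62.0% of Psmb10 plus Psmb7 in cold, against 51.0%, 52.1% and 51.1% at room temperature. All cold libraries lay above all room temperature libraries at each of the 3 places.

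Log2 ratios were taken with 0.5 scaled RPM added to each gene, so they move slightly with the scaling. The ratio of Psmb9 to Psmb6 was 2.53-fold higher in cold, a log2 difference of 1.34 with a standard error of 0.195. For Psmb8 to Psmb5 it was 2.32-fold higher, a difference of 1.22 with a standard error of 0.151, and for Psmb10 to Psmb7 1.60-fold higher, a difference of 0.68 with a standard error of 0.0472. Each difference exceeded the spread between replicates severalfold. The exact two-sided permutation test gave p = 0.1 for each of the 3 ratios, and 0.1 after Benjamini-Hochberg adjustment, the smallest value that 3 libraries against 3 allow. The sum of the 3 immunoproteasome subunits overlapped between the groups, at 72.3, 76.3 and 76.9 scaled RPM in cold against 66.7, 83.6 and 70.3 at room temperature. Without room temperature library 3 the log2 differences were 1.46 for the beta 1 place, 1.25 for beta 5 and 0.67 for beta 2.

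**Figure D3:**
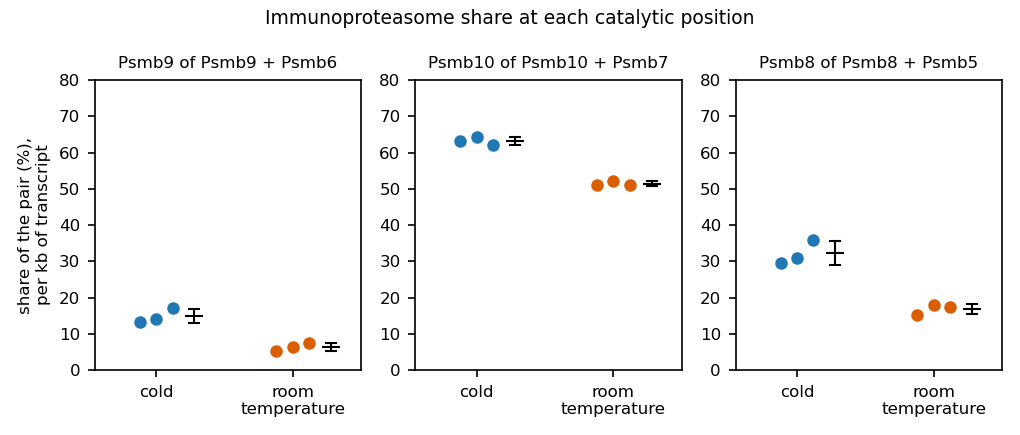
Immunoproteasome share of each catalytic pair (y axis, percent of the pair's level per kilobase of mRNA) in each library (points) with the group mean ± SD (bars), cold left of room temperature. At each of the beta 1, beta 2 and beta 5 places the cold libraries lie above the room temperature libraries.

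The 19S ATPases unfold substrates and thread them into the core. Of the 6, 5 were lower in cold, beside 34.9% of all genes tested, and the median log2 change over the 6 was -0.59. Psmc4 had 39.8, 41.0 and 37.0 scaled RPM in cold libraries against 66.9, 83.2 and 63.2 at room temperature, a change of -0.84 with a standard error of 0.122 (limma, adjusted p = 0.000601). Psmc2 had 35.7, 32.7 and 35.4 in cold against 56.1, 64.5 and 52.0 at room temperature, a change of -0.72. The other lower subunits were Psmc5 at -0.72, Psmc3 at -0.45 and Psmc1 at -0.32, the last of which turns to 0.01 with library totals alone. On that scale Psmc3 was at -0.13 and did not pass. Psmc6 stood apart from its ring, with 30.4, 33.1 and 30.7 in cold against 31.1, 33.8 and 31.4 at room temperature. Its groups overlapped nearly in full, at a log2 change of -0.03 (limma, adjusted p = 0.773), and with library totals alone it was higher in cold, at 0.29.

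The remaining 19S subunits bind ubiquitin, remove it and hold the lid to the base. Of the 11, 9 were lower in cold, beside 34.9% of all genes tested, with a median log2 change of -0.51 over the 11. Psmd3, a scaffold subunit of the lid, had 44.8, 46.8 and 37.7 scaled RPM in cold against 103, 115 and 86.9 at room temperature, a change of -1.23 with a standard error of 0.136 (limma, adjusted p = 0.000176). Psmd14, the metalloprotease that cuts ubiquitin chains from the substrate, had 9.35, 9.72 and 10.1 in cold against 21.7, 24.7 and 20.5 at room temperature, a change of -1.15 with a standard error of 0.109 (limma, adjusted p = 9.92e-05). Both genes had less than the lowest room temperature value in each cold library. Psmd2, a large scaffold of the base, changed by -0.84, Psmd13 by -0.68 and Psmd1, the other large base scaffold, by -0.56. Psmd4, a ubiquitin receptor, and Psmd8 both changed by -0.51. Psmd11 at -0.39 and Psmd6 at -0.35 had the smallest changes that passed. Psmd7, the partner of Psmd14, was at -0.15 and Psmd12 at -0.18 without passing, and they turn to 0.17 and 0.14 with library totals alone. With library totals alone 4 of the 11 were lower and none was higher, beside 24.7% and 46.2% of all genes.

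Assembly chaperones bind subunits before the particle is complete. Of the 3 that assemble the 19S base, Psmd9 and Psmd10 were lower, beside 34.9% of all genes tested. Psmd9 had 59.3, 62.9 and 56.9 scaled RPM in cold against 126, 153 and 106 at room temperature, a change of -1.08, though a long non-coding gene covers 76.1% of its span and the reads cannot be told apart. Psmd10, also known as gankyrin, had 6.06, 6.97 and 6.24 in cold against 13.5, 15.2 and 12.6 at room temperature, a change of -1.04. Both lay lower in every cold library than in any room temperature library. Psmd5, the remaining chaperone of the base, had 22.3, 25.2 and 25.5 in cold against 26.7, 23.1 and 27.5 at room temperature, with overlapping groups and a change of -0.08 that turns to 0.24 with library totals alone.

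Of the 4 chaperones of the 20S core, 2 were lower in cold, beside 34.9% of all genes tested. Psmg4 had 3.08, 3.90 and 3.18 scaled RPM in cold against 6.21, 6.25 and 5.86 at room temperature, a change of -0.77. Psmg1 had 3.73, 4.36 and 3.89 in cold against 5.46, 5.83 and 5.67 at room temperature, a change of -0.46 (limma, adjusted p = 0.0172). These were the pair that passed the test, and the call of Psmg1 was lost without cold library 1, at an adjusted p of 0.0759 in limma, and without cold library 3, at 0.0543. It was also lost with library totals alone, at -0.16 (limma, adjusted p = 0.329). That left 1 of the 4 lower, beside 24.7% of all genes. Psmg2 at -0.36 and Psmg3 at -0.27 did not pass, and Psmg3 turns to 0.04 with library totals alone. Psmg3 also shares 85.5% of its span with another gene on the same strand.

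Activators dock on the core in place of the cap. Psme1 and Psme2, which form the interferon-inducible activator ring, lie close together on chromosome 14 at chr14:55578123-55581529 and chr14:55587441-55591113. Psme1 had 59.1, 67.6 and 52.1 scaled RPM in cold against 88.7, 112 and 87.0 at room temperature, a change of -0.68 with a standard error of 0.140 (limma, adjusted p = 0.00317). Psme2 had 40.9, 47.9 and 38.2 in cold against 54.7, 60.1 and 54.3 at room temperature, a change of -0.41 with a standard error of 0.112 (limma, adjusted p = 0.0114). These interferon-inducible genes were lower in cold, while Psmb8, Psmb9 and Psmb10 did not pass, and the difference between the genes was not tested. For Psme1 the call held with library totals alone, at -0.35, whereas for Psme2 the change there was -0.09 and did not pass. Without cold library 1 the adjusted p of Psme2 in limma was 0.0515.

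Psme3, the nuclear activator, changed by -0.47 and did not pass with library totals alone. Psme4, a large nuclear activator, was at -0.17 without passing and turns to 0.16 with library totals alone. Psmf1, a proteasome regulator first described as an inhibitor, had 11.6, 11.7 and 10.3 scaled RPM in cold against 20.006, 20.4 and 17.3 at room temperature, a change of -0.75 with a standard error of 0.113 (limma, adjusted p = 0.000679). The only proteasome gene that passed as higher was Psme2b, a gene on chromosome 11 that is a near copy of Psme2. It had 4.95, 3.93 and 6.797 scaled RPM in cold against 1.36, 2.02 and 2.52 at room temperature, a change of 1.21 with a standard error of 0.254 (limma, adjusted p = 0.00344). Its span, chr11:48945354-48946190, lies wholly inside Gm12185 on the same strand, so its reads are uncertain on both counts. Psmc3ip, the gene that is no subunit, had 10.4, 11.2 and 9.26 in cold against 14.1, 19.3 and 14.0 at room temperature, a change of -0.58. With library totals alone it was at -0.27 and did not pass. Psmb11, the catalytic subunit of the thymus, had about 5.78 reads over all libraries and was not tested.

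**Figure D4:**
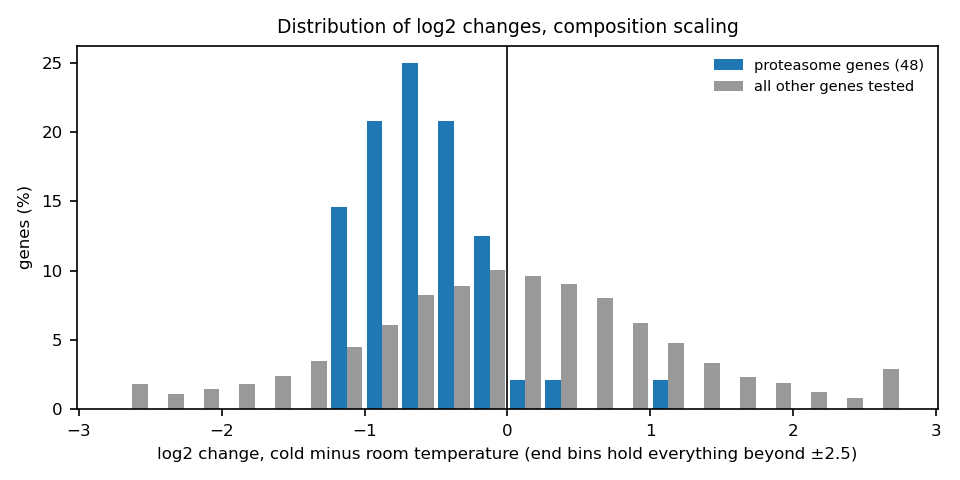
Distribution of log2 changes, cold minus room temperature (x axis, log2 of scaled RPM), of the 48 proteasome genes (blue) and of all other genes tested (grey), as the percent of each set per bin on the y axis. The proteasome genes have a median of -0.61, against 0.00 over all genes tested, and the end bins hold all changes beyond the axis.

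Levels between genes were compared per kilobase of the principal mRNA, since the deposited values divide by a span that holds introns. Psmd4, Psmd8 and Psmd10 had no principal mRNA length at hand and were not ranked. Among the rest, the most abundant subunits on this scale at room temperature were Psmb6 at 123, Psmb4 at 105, Psme1 at 86.2 and Psmb5 at 85.5 scaled RPM per kilobase. The immunoproteasome catalytic subunits lay below these most abundant ones at room temperature, with 26.0 for Psmb10, 17.4 for Psmb8 and 8.32 for Psmb9. Psmb10 was near its partner Psmb7 at 24.5. Subunits that occur in equal numbers in the particle did not have equal values on this scale. Such values can include reads from introns and from overlapping genes, and the part of these was not tested. The SD of log2 level among the 14 constitutive core subunits was 0.775 to 0.827 in cold libraries and 0.828 to 0.921 at room temperature. Per kilobase of span the same SD was 1.95 to 1.99 in cold and 1.94 to 2.02 at room temperature.

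Of 17 tested partners that assemble, serve or deliver to the proteasome, 8 were lower and 5 higher, with a median log2 change of -0.24. Over all genes tested the shares were 34.9% lower and 35.5% higher, so these counts show nothing particular to the partners. On library totals alone 6 were lower and 6 higher, beside 24.7% and 46.2% of all genes. Zfand2a, a stress-induced protein that binds the 19S cap, had 16.1, 15.8 and 18.3 scaled RPM in cold against 7.78, 8.48 and 7.66 at room temperature, a change of 1.02. Its cold libraries lay above all room temperature libraries. Ubqln2, a shuttle that brings ubiquitinated proteins to the cap, changed by -0.89 and the cap ubiquitin receptor Adrm1 by -1.07. Among others picked after their values were seen, the small cap subunit Sem1, listed as Shfm1, changed by -0.91 and Pomp, the maturation chaperone of the core, by -0.60.

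Nrf1, made from Nfe2l1, is the transcription factor that raises proteasome genes when the proteasome is short. Of the 9 genes of its control, 3 were higher and 3 lower, which is close to the shares of all genes, 35.5% higher and 34.9% lower. On library totals alone 4 were higher and 1 lower, beside 46.2% and 24.7% of all genes. Vcp, the ATPase that extracts proteins including Nrf1 from the endoplasmic reticulum, had 142, 165 and 167 scaled RPM in cold against 354, 345 and 319 at room temperature, a change of -1.10. Its cofactor Ufd1, listed as Ufd1l, changed by 0.64 and Ddi2, the protease that activates Nrf1, by 0.53. Ngly1, which removes sugars from Nrf1, changed by -0.38, but by -0.06 with library totals alone, where it did not pass. Nfe2l1 itself, named after its values were seen, had 129, 122 and 130 in cold against 110, 101 and 112 at room temperature, a change of 0.23 (limma, adjusted p = 0.0471).

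Ubiquitin itself is encoded by several genes. Of the 6 genes for ubiquitin and the enzymes that activate it, 5 were lower and 1 higher, with a median log2 change of -0.68. Over all genes tested the shares were 34.9% lower and 35.5% higher. On library totals alone 3 were lower and 1 higher, beside 24.7% and 46.2% of all genes. The polyubiquitin gene Ubb changed by -0.83 and the main activating enzyme Uba1 by -0.97. The higher gene was Uba6, the other activating enzyme, at 8.999, 10.3 and 10.04 scaled RPM in cold against 5.24, 4.66 and 8.56 at room temperature, a change of 0.67. Its room temperature library 3 lay near the cold group, and its call was lost without any of cold library 2, cold library 3, room temperature library 1 or room temperature library 2.

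Peptides from the proteasome reach MHC class I through a transporter and a set of chaperones. Of the 10 genes of this step, 5 were lower and none higher, with a median log2 change of -0.35. The shares over all genes tested were 34.9% lower and 35.5% higher. With library totals alone 3 were lower, and 2, Tap1 and B2m, were higher, beside 24.7% lower and 46.2% higher over all genes. The chaperone Calr changed by -1.64, the disulfide isomerase Pdia3 by -1.03, tapasin, Tapbp, by -0.77 and the transporter subunit Tap2 by -0.51. Tap2 did not pass with library totals alone, at -0.18 (limma, adjusted p = 0.154). Tap1, the other part of the transporter and the neighbour of Psmb9, had 23.3, 28.5 and 30.3 scaled RPM in cold against 19.4, 33.1 and 19.1 at room temperature and did not pass. Its highest value was in room temperature library 2, as for Psmb8.

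Interferon-gamma control genes went the other way from the core. Of 10 tested, 8 were higher in cold and none lower, and their median log2 change was 0.89. Over all genes tested the shares were 35.5% higher and 34.9% lower. On library totals alone 9 were higher and none lower, beside 46.2% and 24.7% of all genes. Ifngr1, a chain of the receptor, had 106, 98.2 and 112 scaled RPM in cold against 35.1, 34.2 and 41.6 at room temperature, a change of 1.503. Irf1, the transcription factor known to drive Psmb9 and Tap1, had 66.4, 64.5 and 71.6 in cold against 28.6, 26.5 and 32.9 at room temperature, a change of 1.19. Nlrc5, the activator of MHC class I genes, had 22.9, 26.3 and 36.2 in cold against 3.196, 6.49 and 5.49 at room temperature, a change of 2.40. The second receptor chain, Ifngr2, changed by 0.90. Several of these genes are also expressed by leukocytes and endothelium, whose markers were higher in cold, and their part was not tested.

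**Figure D5:**
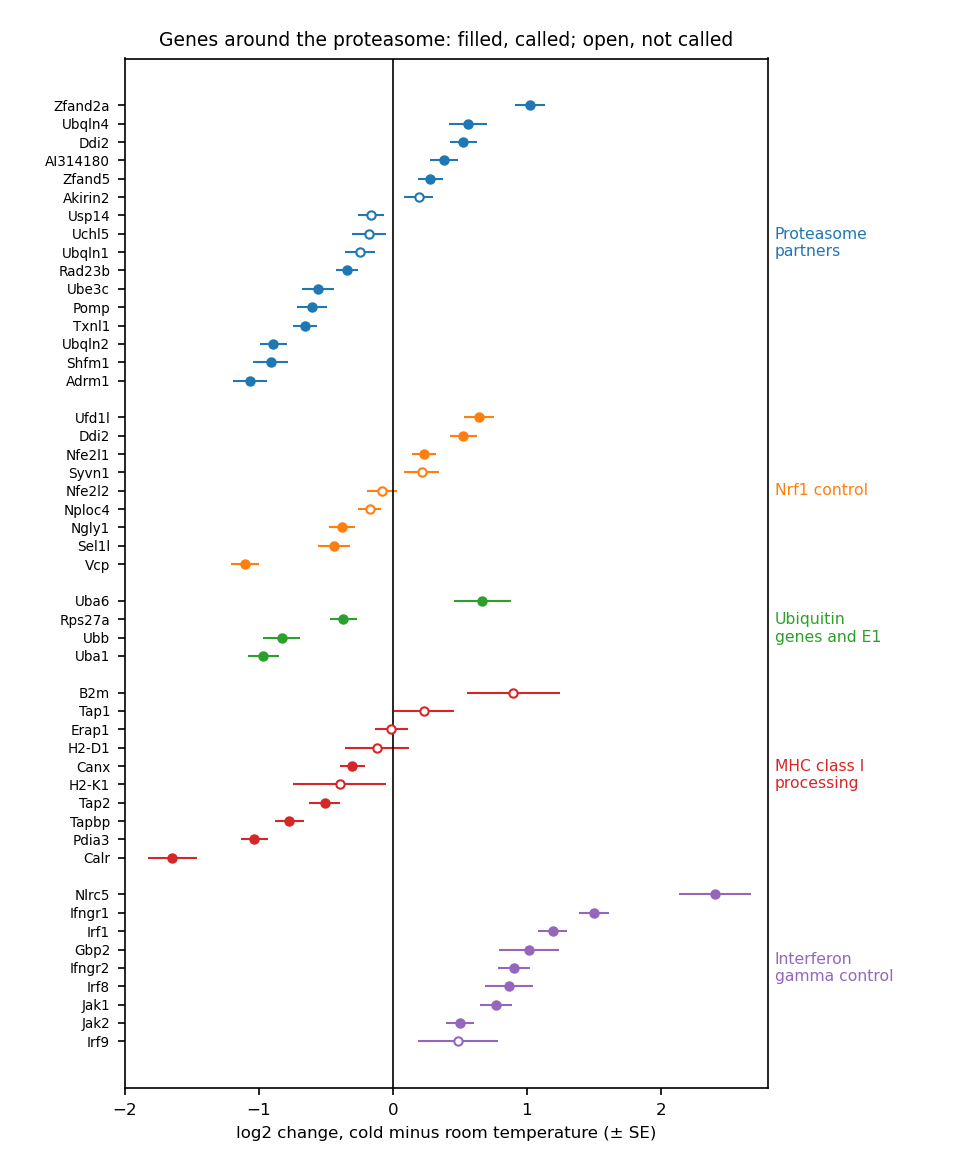
Log2 change, cold minus room temperature (x axis, log2 of scaled RPM), of other genes of the pathway by list down the y axis, with bars for the standard error, filled points for genes that passed the test and open points for those that did not. The interferon-gamma control genes drawn lie above 0, with a median of 0.89 over the whole list, while genes for ubiquitin and its activation lie mostly below 0, with a median of -0.68 over the whole list.

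In the authors' deposited table, Psme2b was the 1 proteasome gene with a q value under 0.05, at a log2 ratio of 1.72 and a q of 0.0441. None was lower at that q in the authors' deposited table, where 12.0% of all rows were lower and 12.7% higher. The log2 ratio of the authors' deposited table was below 0 for 38 of the 50 genes and above 0 for 12, and the lowest q among the lower ones was 0.0741, for Psma6. The share of all rows below 0 was not counted. Deposited values carry library totals alone, and on that scale the median log2 change of all genes tested was 0.29, above 0.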

How the data were processed

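Total RNA of lung was sequenced from NEBNext Ultra II libraries, per the labels' protocols, and placed on mm10 (submitters' processing notes). The sources used here do not name the aligner, the counter or the annotation. The deposited values are RPKM, rounded by the authors to 3 decimals, although named as raw counts. Multiplied by gene span in GENCODE M21 (GRCm38), introns included, they fell on whole-read steps (85.0% to 86.4% whole within 0.1 reads; phase coherence 0.817 to 0.844, against at most 0.133 for exon length). The step gave each library's depth. The deposited log2 ratio is that of the authors' group means plus 0.001, and deposited q values follow from deposited p-values by Benjamini-Hochberg in all 18174 rows. The sources used here do not name the authors' test.

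RPKM times span gave RPM, scaled per library by a trimmed mean of ratios without weights (trimmed at each end by 30% for ratios and 5% for averages). limma 3.58.1 in R 4.3.3 (lmFit, eBayes with trend and robust) took log2 of scaled RPM with 0.5 added, which understates changes near 0.5 RPM. Two-sided p-values were adjusted by Benjamini-Hochberg over 15236 genes, with a threshold of 0.05. Genes needed 15 reads in all and 3 libraries at a level worth 10 reads in the median library. The 92 rows without a span were left out, and 49 repeated symbols were labelled by gene ID. Columns of no sample numbered 0.

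The genes and lists were chosen with earlier results of these data known. Values are given per library for the catalytic subunits, Psme1 and Psme2, and for up to 2 called genes in each direction per role by size of change. Up to 4 called genes per further list were taken by smallest p. Genes outside this rule that are given per library (Psma2, Psmc6, Psmd5, Psmg1, Psmg4, Psma8, Psmc3ip, Nfe2l1, Tap1, Uba6) were added after their values were seen, as were Pomp and Shfm1. So were B2m, H2-D1 and Irf9, given per library, and Irf8 and Gbp2, given for the room temperature libraries. Paaf1 and Dnai1 of the lists had no row, and some listed genes are counted but not reported by name here. No libraries agreed within sampling noise (chi-square per degree of freedom 15.9 to 24.9 in cold and 31.8 to 88.3 at room temperature). Replicate numbers come from the labels. Deviations of same-numbered libraries correlated at 0.116, 0.148 and 0.156 across genes, so the numbers were taken as possible pairs, and a fit with the replicate block is among the alternatives. The others were library totals alone, RPKM plus 0.01, pseudocounts of 0.1 and 2, no filter, and each library left out. The procedure was tested on simulated data with few changed genes, balanced in direction, so that test cannot judge the composition scaling used here.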

Additional observations from a re-analysis of the deposited data

How the results depend on the processing

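Against 37 proteasome genes lower and 1 higher, library totals alone gave 24 lower and 4 higher, and log2 of RPKM plus 0.01 also gave 24 and 4. The median over all genes was 0.29 and 0.30 in these settings, and that of the proteasome genes -0.29 and -0.30. Of the other pathway genes, 13 were lower with library totals alone, against 21. Changes that turned direction with library totals alone were Psmb10 0.24, Psmc1 0.0080, Psmc6 0.29, Psmd7 0.17, Psmd12 0.14, Psmd5 0.24, Psme4 0.16 and Psmg3 0.040. With RPKM plus 0.01 they were Psmb10 0.24, Psmc1 0.0080, Psmc6 0.30, Psmd7 0.17, Psmd12 0.14, Psmd5 0.25, Psme4 0.16 and Psmg3 0.042. The alternatives' construction shows the cause, since they leave out the composition scaling. With no filter, 2 were higher, Psme2b and Psma8, and Psma8 is named after its values were seen.

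Leaving out each library gave 33 to 37 lower and 1 to 2 higher, the second being Psmb9 without room temperature library 2. Changes near 0 crossed it, with ranges of -0.078 to 0.12 for Psmb8, -0.071 to 0.014 for Psmc6 and -0.17 to 0.0031 for Psmd5. Without cold library 1, Psma3 (limma, adjusted p = 0.0520), Psmc1 (0.0908), Psmd6 (0.0663), Psme2 (0.0515) and Psmg1 (0.0759) no longer passed and Psmg2 did (0.0452), and without cold library 2 Psmc1 did not (0.0626). The log2 ratios stayed at 1.20 to 1.46 for Psmb9 to Psmb6, 0.64 to 0.72 for Psmb10 to Psmb7 and 1.10 to 1.30 for Psmb8 to Psmb5. The fit with the replicate block gave 37 lower and 1 higher and changed no call of a proteasome gene, and the paired permutation of the ratios gave p = 0.25, the smallest that 3 pairs allow. With 3 libraries in each group the ratios cannot pass a threshold of 0.05.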

Other observations

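Room temperature library 2, the highest of its group for the immunoproteasome subunits, was highest of its group for 7 of the 10 MHC class I processing genes and lowest for 1. Among the 10 interferon-gamma control genes it was highest for 4 and lowest for 6. The order was looked at after the values were seen. It was not counted over all genes, so these counts cannot be called particular to either list. Library 2 lay farthest from the cold group on the first principal component, at 94.3. For the tested proteasome genes, the median log2 deviation from each gene's mean over all libraries was 0.413 in library 2. In room temperature libraries 1 and 3 that deviation was 0.275 and 0.217. Among the genes where library 2 was highest, B2m, the light chain of MHC class I, had 320, 325 and 449 scaled RPM in cold against 145, 341 and 145 at room temperature. H2-D1, an MHC class I heavy chain, had 513, 561 and 524 in cold against 497, 867 and 446 at room temperature. Irf9, an interferon regulatory factor, had 41.7, 59.0 and 39.97 in cold against 25.5, 52.5 and 26.2 at room temperature. None of these 3 genes passed the test in limma. In the other direction, library 2 was lowest for Irf1, at 28.6, 26.5 and 32.9 in room temperature libraries 1, 2 and 3, for Irf8, at 10.9, 7.85 and 13.0, and for Gbp2, at 10.9, 7.77 and 13.7.

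The p-values of the authors' deposited table were highest at a log2 ratio above 0. Over the 221 rows with a p above 0.95 and a mean RPKM above 0.5, the median log2 ratio in the authors' deposited table was 0.31, with quartiles of 0.30 and 0.34. The proteasome genes among them were Psmc6, at 0.30, and Psmb8, at 0.35. The sources used here do not name that test.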
